A study of Mus musculus with 6 samples.

Results

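Chemokines are small secreted proteins that draw leukocytes along a concentration gradient, and each is read by receptors of the G protein-coupled class on the cells it attracts. The CC and CXC families are named for the spacing of their first cysteines, and the receptors are named after the family they bind (CCR and CXCR). Some members, such as CCL2 and its receptor CCR2, recruit monocytes into inflamed or injured muscle, whereas others, such as CXCL12 with CXCR4, keep cells in place in resting tissue.

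The genes described here were the protein-coding rows of a mouse muscle count table whose symbol begins with *Ccl*, *Cxcl*, *Ccr* or *Cxcr* followed by a digit. The 58 such rows described here, among 53084, had 52 different symbols. Of these rows, 42 were ligands (30 CC and 12 CXC) and 16 were receptors (10 CC and 6 CXC). A total of 7 rows lay on unplaced scaffolds and were further copies of *Ccl19*, *Ccl21* or *Ccl27*.

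The RNA came from muscle of male C57BL/6 mice aged 6 weeks on standard chow, and the muscle taken was not named. The comparison was between 3 *Tarsl2*+/+ mice (WT, mice 583, 584 and 595) and 3 *Tarsl2*-/- mice (KO, mice 588, 589 and 591), with 1 library per mouse. *Tarsl2* encodes a protein like threonyl-tRNA synthetase and is a relative of *Tars1*, the gene of the cytoplasmic enzyme. The KO allele is a CRISPR/Cas9 deletion of a fragment holding exon 3, made in C57BL/6J zygotes and so not limited to a cell type. The question asked of the libraries was which transcripts differ in muscle when Tarsl2 is missing.

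Between 16176591 and 20123767 reads per library were counted on genes. *Tarsl2* itself had 456 to 605 counts in the WT and 30 to 40 counts in the KO libraries, so its level followed the labels. The sample records also mention a retinal extraction, but no library had more than 7 counts of any of 10 retina markers, whereas 7 muscle fibre markers summed to between 48129 and 61435 CPM. CPM here are counts relative to the library total (the usual CPM unit) after scaling by TMM, a trimmed mean of log ratios between libraries, and 3 counts, the limit that a count of 0 allows, correspond to 0.146 to 0.187 CPM for counting error only.

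Of the 58 members, 25 had enough counts to be tested, 24 had some counts but too few, and 9 had no count in any library. A gene was tested where at least 3 libraries reached 0.541 CPM, which is about 10 counts. This filter let in 5 members (*Ccl5*, *Cxcl13*, *Cxcl1*, *Cxcr3* and *Cxcl10*) through their 3 WT libraries while fewer than 3 KO libraries reached it, and no member in the other direction. Counts over the 25 are therefore given as a description, and 18 of the 25 had at least 10 counts in each of the 6 libraries.

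In KO muscle 6 members were lower and none was higher at an adjusted p under 0.05 (edgeR's quasi-likelihood test, Benjamini-Hochberg adjustment over 15075 genes). The 6 were the ligands *Ccl8*, *Ccl12*, *Ccl6*, *Ccl9* and *Cxcl16* and the receptor *Ccr1*. Across all tested genes 2.27% were called, 1.37% as lower in KO and 0.896% as higher. The 6 called members were all among the 18 with 10 counts in every library. By unadjusted p under 0.05, 13 of the 25 passed, beside 19.8% of all tested genes, and of these none was higher in KO. In 12 of the 25 every KO library lay below every WT library, beside 12.0% of all genes, and in 0 every KO library lay above, beside 12.6%. The log2 fold change (KO over WT) was below 0 for 23 of the 25, beside 49.6% of all genes, and its median was -0.54, beside 0.00253 for all tested genes. For the 18 well-counted members, which leave out those let in through WT, the median was -0.44. Of these, 17 were below 0, and in 11 every KO library lay below every WT library.

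**Figure D1:**
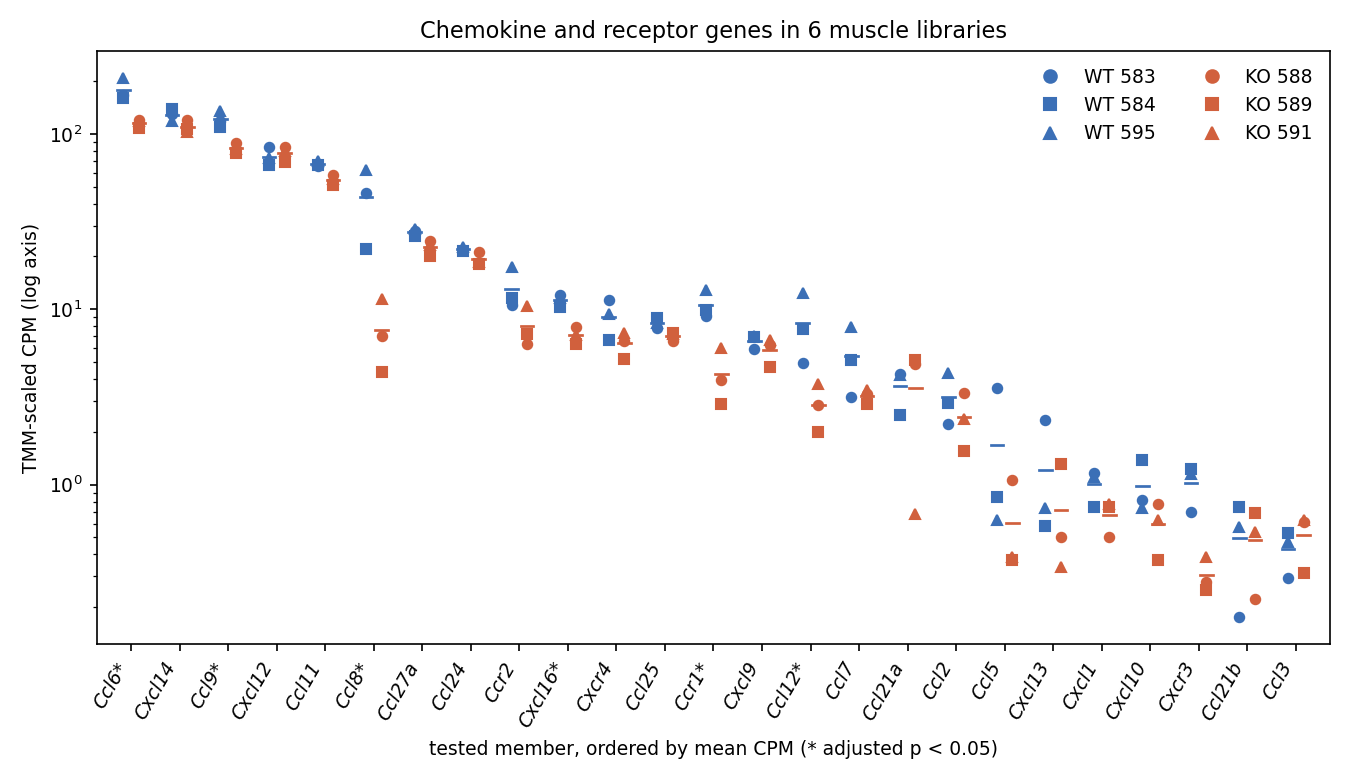
TMM-scaled CPM (log axis) of the 25 tested members in the 6 libraries, ordered by mean CPM. Points are libraries (WT blue, KO orange), short lines are group means and an asterisk marks an adjusted p under 0.05. *Ccl8* shows the widest gap, with the WT libraries between 22.0 and 62.4 CPM and the KO libraries between 4.37 and 11.4 CPM.

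The monocyte chemoattractant proteins, encoded by *Ccl2*, *Ccl7*, *Ccl12* and *Ccl8*, are the ligands that call monocytes out of blood, mainly through CCR2. Mouse CCL8 is also known as a ligand of CCR8. These 4 genes lie side by side with the eotaxin gene *Ccl11* on chromosome 11. *Ccl8* (ENSMUSG00000009185, GRCm38 chr11:82115185-82116799, plus strand) had 786, 415 and 1188 counts in WT mice 583, 584 and 595, and 127, 70 and 235 counts in KO mice 588, 589 and 591. In CPM this was 46.0, 22.0 and 62.4 in WT and 7.08, 4.37 and 11.4 in KO. The groups did not overlap, although WT mouse 595 had nearly 3 times the level of WT mouse 584. The means were 43.5 ± 20.3 CPM (SD, n = 3) in WT and 7.62 ± 3.56 in KO. The log2 fold change was -2.49 with a standard error of 0.37 (adjusted p = 0.00807, edgeR), a level 5.61-fold lower in KO.

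*Ccl12* (ENSMUSG00000035352, chr11:82101845-82103400, plus strand), the neighbour of *Ccl8*, had 4.91, 7.70 and 12.3 CPM in WT mice 583, 584 and 595 and 2.84, 2.0 and 3.74 CPM in KO mice 588, 589 and 591. Every KO library was below every WT library, and WT mouse 595 was again the highest. Its log2 fold change was -1.53 ± 0.32 (SE; adjusted p = 0.0342, edgeR). Without WT mouse 595 it was -1.13 (adjusted p = 0.108, edgeR), and *Ccl12* stayed called in 2 of 6 fits with a library left out. The other two genes of the group did not pass the test. The log2 fold change of *Ccl7* was -0.76 (adjusted p = 0.171) with overlapping groups, and that of *Ccl2* was -0.37 (adjusted p = 0.552). Both were highest in WT mouse 595, and without that library their log2 fold changes were -0.38 and -0.08.

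The bases just upstream of *Ccl8* and *Ccl12* are shown because these neighbouring genes had the largest falls among the ligands called. They are the 250 bases before the start of each gene as RefSeq gives it on GRCm38.p6 (chr11:82114935-82115184 for *Ccl8* and chr11:82101595-82101844 for *Ccl12*, both plus strand), written 5′ to 3′ in the direction of the gene. Capitals mark letters that matched a motif searched for on both strands: TATAAA (the TATA box), TGANTCA (AP-1), TTGCNNAA (C/EBP), GAGGAA (the core bound by PU.1, an ETS factor of myeloid cells), TTCNNNGAA (STAT), the ISRE of interferon response factors, and the NF-kB motif.
Ccl8: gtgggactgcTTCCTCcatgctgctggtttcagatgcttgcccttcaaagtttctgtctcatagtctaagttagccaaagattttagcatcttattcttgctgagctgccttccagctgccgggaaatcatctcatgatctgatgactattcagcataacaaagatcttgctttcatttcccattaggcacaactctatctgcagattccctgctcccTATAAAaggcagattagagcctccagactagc
Ccl12: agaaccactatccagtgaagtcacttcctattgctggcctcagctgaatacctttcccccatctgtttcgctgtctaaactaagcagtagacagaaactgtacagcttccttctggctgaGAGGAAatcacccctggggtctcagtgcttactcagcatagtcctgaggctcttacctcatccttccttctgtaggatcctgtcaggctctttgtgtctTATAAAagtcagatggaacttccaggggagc

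Counted back from the start, TATAAA stood at -32 to -27 in *Ccl8* and at -31 to -26 in *Ccl12*, on the strand of the gene in both. GAGGAA stood at -240 to -235 in *Ccl8*, on the other strand, and at -130 to -125 in *Ccl12*, on the strand of the gene. Among 32851 RefSeq promoters, TATAAA on either strand was in 12.4% of windows of this length and GAGGAA in 23.3%. Of the 6 called members, 5 had a promoter entry that matched their listed start, and 3 of the 5 held TATAAA and 3 held GAGGAA. Of 12 tested members with an entry that were not called, 3 held each. The letters of the C/EBP, STAT and ISRE motifs, found in 9.56%, 7.02% and 2.98% of all windows, were in none of the 5. The AP-1 letters (6.75% of all windows) were in 1 of the 5 and the NF-kB motif (7.25%) in 2. These are matches of letters and not measured sites.

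*Ccl6* and *Ccl9* encode ligands of CCR1 that myeloid cells make in quantity, and their genes lie next to each other in a second chromosome 11 cluster with *Ccl5*, *Ccl3* and *Ccl4*. *Ccl6* (ENSMUSG00000018927, chr11:83587882-83593087, minus strand) had the most counts of all members. It had 166, 159 and 209 CPM in WT mice 583, 584 and 595 and 120, 109 and 118 CPM in KO mice 588, 589 and 591. The groups were separate, and the log2 fold change was -0.62 ± 0.11 (SE; adjusted p = 0.0174, edgeR), a level 1.54-fold lower in KO. *Ccl9* (ENSMUSG00000019122, chr11:83572919-83578636, minus strand) had 119, 109 and 134 CPM in WT and 88.6, 77.7 and 82.4 CPM in KO. Its groups were also separate, with a log2 fold change of -0.54 ± 0.10 (SE; adjusted p = 0.0185). Both genes therefore fell by much less than *Ccl8*, and with less spread within a genotype.

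The 250 bases before *Ccl6* (chr11:83593088-83593337) and *Ccl9* (chr11:83578637-83578886), both minus strand, differed in the motifs that matched. How alike the sequences of these neighbours are was not measured. *Ccl6* held none of the 7 motifs, whereas *Ccl9* held TATAAA at -224 to -219 on the other strand and, on both strands and overlapping, between -94 and -87. It also held the AP-1 letters at -53 to -47, where the pattern matches on both strands, and an NF-kB match at -35 to -26 on the other strand. Capitals have the same meaning as above.
Ccl6: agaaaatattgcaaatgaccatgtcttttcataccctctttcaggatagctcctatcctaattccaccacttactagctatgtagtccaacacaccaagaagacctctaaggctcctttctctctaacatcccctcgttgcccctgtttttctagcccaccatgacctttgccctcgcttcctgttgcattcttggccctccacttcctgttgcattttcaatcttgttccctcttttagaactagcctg
Ccl9: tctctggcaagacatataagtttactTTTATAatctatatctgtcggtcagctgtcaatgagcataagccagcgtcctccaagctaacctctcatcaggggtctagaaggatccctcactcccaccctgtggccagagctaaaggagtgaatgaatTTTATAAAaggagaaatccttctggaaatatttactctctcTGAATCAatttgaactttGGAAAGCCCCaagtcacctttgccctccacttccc

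The neighbouring ligand genes *Ccl5*, *Ccl3* and *Ccl4* were scarce. *Ccl5*, which T cells and NK cells make, showed a log2 fold change of -1.44 ± 0.66 (SE; adjusted p = 0.255). That value rested on WT mouse 583, which had 61 counts where the other 5 libraries had 6 to 19, and without it the log2 fold change was -0.29. *Ccl3*, made by activated macrophages, had 5, 10 and 9 counts in WT mice 583, 584 and 595 and 11, 5 and 13 counts in KO mice 588, 589 and 591, a log2 fold change of 0.27 (adjusted p = 0.785). The groups of *Ccl3* overlapped. *Ccl4* had at most 8 counts and was not tested.

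Of the 10 CC receptors described here, 2 could be tested, and each had a lower level in every KO library. Both genes lie on chromosome 9 and are carried by monocytes and macrophages. *Ccr1* (ENSMUSG00000025804, chr9:123962124-123968692, minus strand), the receptor of CCL6 and CCL9, had 9.12, 9.93 and 12.8 CPM in WT mice 583, 584 and 595 and 3.96, 2.87 and 6.03 CPM in KO mice 588, 589 and 591. Its log2 fold change was -1.29 ± 0.23 (SE; adjusted p = 0.0185, edgeR). WT mouse 595 was the highest, and the groups did not overlap. *Ccr2*, the receptor of the monocyte chemoattractant proteins, showed a log2 fold change of -0.71 ± 0.22 (SE) and missed the threshold (adjusted p = 0.106), with a 95% interval from -1.19 to -0.23. With DESeq2 it passed (adjusted p = 0.0477). It also passed where 1 count in any library sufficed, a fit that called 5.62% of all genes against 2.27% here. Over all alternatives the adjusted p of *Ccr2* ran from 6.32e-05 to 0.330.

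The 250 bases before *Ccr1* (chr9:123968693-123968942, minus strand) are shown as the receptor counterpart of the ligand starts above. They held GAGGAA at -129 to -124 and an NF-kB match at -74 to -65, both on the strand of the gene, and no TATAAA.
Ccr1: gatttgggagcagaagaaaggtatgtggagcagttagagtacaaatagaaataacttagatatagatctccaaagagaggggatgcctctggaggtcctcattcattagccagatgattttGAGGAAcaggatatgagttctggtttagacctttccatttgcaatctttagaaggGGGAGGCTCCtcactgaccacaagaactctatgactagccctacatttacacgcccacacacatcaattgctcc

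**Figure D2:**
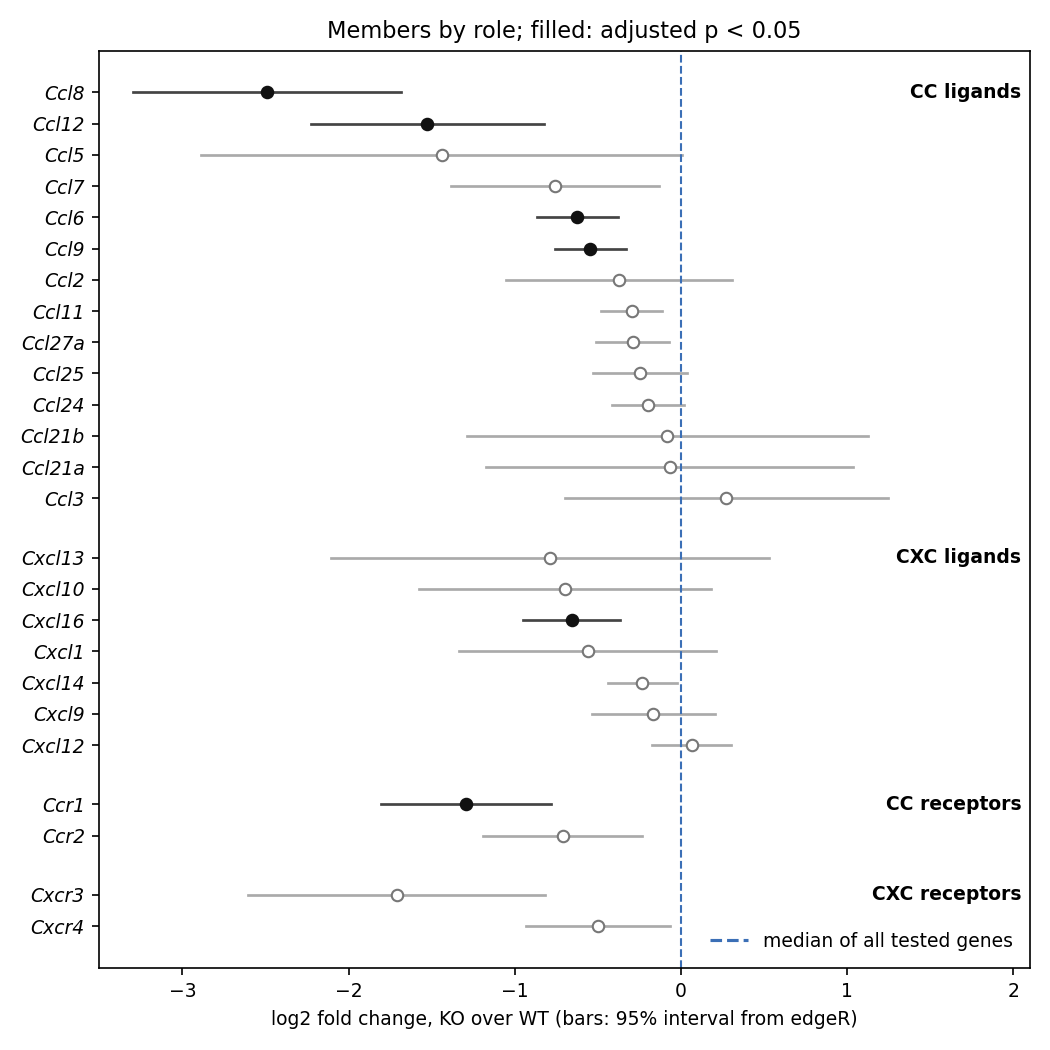
Log2 fold change (KO over WT) of the 25 tested members by role, with 95% intervals from edgeR. Filled points have an adjusted p under 0.05 and the dashed line is the median of all tested genes, 0.00253. Of the 4 tested receptors and 21 tested ligands, 1 and 5 were called, and the points above 0 are *Ccl3* at 0.27 and *Cxcl12* at 0.06.

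*Cxcl16* encodes a membrane-bound ligand of CXCR6 that also takes up oxidised lipoproteins, and it was the called member of the CXC family. *Cxcl16* (ENSMUSG00000018920, chr11:70453983-70459984, minus strand) had 12.0, 10.3 and 11.5 CPM in WT mice 583, 584 and 595 and 7.92, 6.36 and 7.10 CPM in KO mice 588, 589 and 591. The groups were well apart and tight, with means of 11.3 ± 0.90 CPM (SD, n = 3) and 7.12 ± 0.78. The log2 fold change was -0.66 ± 0.13 (SE; adjusted p = 0.0285, edgeR). With a library left out the gene stayed called in 2 of 6 fits, with an adjusted p (edgeR) of up to 0.124. The gene overlaps *Zmynd15* on the other strand, which had 41 counts in all libraries together against 1008 for *Cxcl16*. Its receptor *Cxcr6* had at most 9 counts in a library and was not tested.

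*Cxcr3*, the receptor of T and NK cells for interferon-induced ligands, had 12, 23 and 22 counts in WT mice 583, 584 and 595 and 5, 4 and 8 counts in KO mice 588, 589 and 591. These counts were singled out after the values were seen. The groups did not overlap, and the log2 fold change of -1.71 ± 0.41 (SE) was the second largest in size, but it lay just outside the threshold (adjusted p = 0.0546). *Cxcr3* entered the test only through its WT libraries, as no KO library reached the count limit. Its gap and rank are therefore description and no support for a difference. The interferon-induced ligands themselves did not pass. *Cxcl9* showed a log2 fold change of -0.17, with an adjusted p of 0.633 and *Cxcl10* of -0.70 (adjusted p = 0.367), both with overlapping groups. *Cxcl10* lies within *Art3* on the opposite strand, and *Art3* had 10982 counts against its 87, so that its count is uncertain unless strand was used.

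The ligands of resting tissue had small differences that did not pass the test. *Cxcl14*, which many tissues make constitutively, had 130, 138 and 119 CPM in WT mice 583, 584 and 595 and 120, 106 and 103 CPM in KO mice 588, 589 and 591. The lowest WT value lay below the highest KO value, and the log2 fold change was -0.23 (adjusted p = 0.206). *Cxcl12*, made by stromal cells, had 83.7, 66.1 and 72.8 CPM in WT and 83.7, 69.4 and 79.7 CPM in KO. The groups overlapped almost completely, with a log2 fold change of 0.06 and a 95% interval from -0.17 to 0.30 (adjusted p = 0.790), and a fall of the size seen for *Ccl9* is outside that interval. Its receptor *Cxcr4* showed a log2 fold change of -0.50, with an adjusted p of 0.192.

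The eotaxins bind CCR3 and attract eosinophils. *Ccl11* had 65.2, 66.7 and 70.0 CPM in WT mice 583, 584 and 595 and 58.0, 51.2 and 55.2 CPM in KO mice 588, 589 and 591. Every KO library was lower, and the log2 fold change of -0.30 ± 0.08 (SE) did not pass (adjusted p = 0.0857). *Ccl24* showed a log2 fold change of -0.20, with an adjusted p of 0.296, *Ccl26* had no count, and *Ccr3* had at most 8 counts in a library. Ligands known from skin and gut were present at modest levels. *Ccl27a* showed a log2 fold change of -0.29, with an adjusted p of 0.142 and *Ccl25* of -0.25 (adjusted p = 0.322). *Ccl27a* overlaps *Il11ra1* and *Ccl25* overlaps *Elavl1*, each on the opposite strand and with more counts than the chemokine gene (16058 and 3058 against 2753 and 844), so part of these levels could belong to the partners.

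The chemokines that organise lymphoid tissue, CCL19 and CCL21 for CCR7 and CXCL13 for CXCR5, gave no call. The best counted row of this kind was a copy of *Ccl21a* on the scaffold JH584294.1, with 73, 47 and 80 counts in WT mice 583, 584 and 595 and 87, 82 and 14 counts in KO mice 588, 589 and 591. KO mouse 591 stood below the other 5 libraries, and the log2 fold change moved from -0.07 (adjusted p = 0.964) to 0.45 without it. *Ccl21b* on the scaffold GL456350.1 had 54 counts in all and a log2 fold change of -0.08 (adjusted p = 0.961). Shared stretches could be counted only for the chromosome 4 rows of these symbols, which had too few counts to be tested. There 100% of the 75-base stretches in transcripts of *Ccl21b*, and 61.3% in those of *Ccl21a*, recur in transcripts of other genes. Sharing was not measured for the scaffold rows, and the split of reads between the copies is uncertain. *Cxcl13* had 40 counts in WT mouse 583 and 7 to 21 in the others, and its log2 fold change of -0.79 (adjusted p = 0.510) became 0.07 without that mouse.

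Of the 24 members with too few counts, the mean CPM was lower in KO for 18 and higher for 6. The 3 highest single counts among them were in WT mouse 583 and belonged to lymphocyte and dendritic cell genes. *Ccr7* had 33 counts there against 0 to 12 in the other libraries, *Cxcr5* had 20 against 0 to 6, and *Ccl22* had 17 against 2 to 6. The ligands and receptor that draw neutrophils were near the limit of detection. *Cxcl1* was the tested one, with 9 to 21 counts in a library and a log2 fold change of -0.56 (adjusted p = 0.409), while *Cxcl2* had at most 7 counts, *Cxcl5* at most 5 and *Cxcr2* at most 3. The 9 rows with no count in any library were *Ccl20*, *Ccl21c*, *Ccl26*, *Ccr8*, *Cxcl3*, *Cxcr1* and scaffold copies of *Ccl19*, *Ccl21b* and *Ccl27a*.

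Per base of gene length, as TPM (counts divided by the listed gene length and scaled to a fixed total), the level of *Ccl6* was the highest, with 164 ± 16.1 TPM (SD, n = 3) in WT and 110 ± 7.33 in KO. In WT muscle *Ccl8* came next at 139 ± 59.2 TPM, followed by *Cxcl14* at 118 ± 14.6 and *Ccl11* at 103 ± 3.28, and the spread of *Ccl8* between mice covered the levels of all 3 others. In KO muscle *Ccl8* was at 25.7 ± 12.9 TPM, below *Cxcl14* at 102 ± 4.99, *Ccl11* at 86.3 ± 5.54 and *Ccl9* at 46.4 ± 2.74, and next to *Ccl24* at 25.3 ± 1.62, from which it did not differ beyond its spread.

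The libraries of a genotype were not alike in which members they held most. Of the 25 tested members, 12 had their highest CPM in WT mouse 595, 5 each in WT mice 583 and 584, and 3 in a KO library. The lowest CPM was in a KO library for 22, and in KO mouse 589 for 16. The title of KO mouse 589 carries an added letter T that the other titles lack, and its meaning is not given. WT mouse 595 led for the monocyte and macrophage genes *Ccl8*, *Ccl12*, *Ccl7*, *Ccl2*, *Ccr1* and *Ccr2*. It also led for *Ccl6*, *Ccl9*, *Ccl11*, *Ccl24*, *Ccl27a* and *Cxcl9*. WT mouse 583 led for *Ccl5*, *Cxcl13*, *Cxcl16*, *Cxcr4* and *Cxcl1*. The summed CPM of 10 macrophage markers was 831 in WT mouse 595 and 818 in WT mouse 583. In the same WT mouse 583 the T cell marker *Cd3d* had 93 counts against 0 to 29 elsewhere and the B cell marker *Ms4a1* had 84 against 0 to 10. The summed CPM of 8 neutrophil markers was 70.5 there against 2.06 to 16.5 in the other libraries. The part of these cells in the levels of *Ccl5*, *Cxcl13*, *Ccr7* and *Cxcr5* was not tested.

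**Figure D3:**
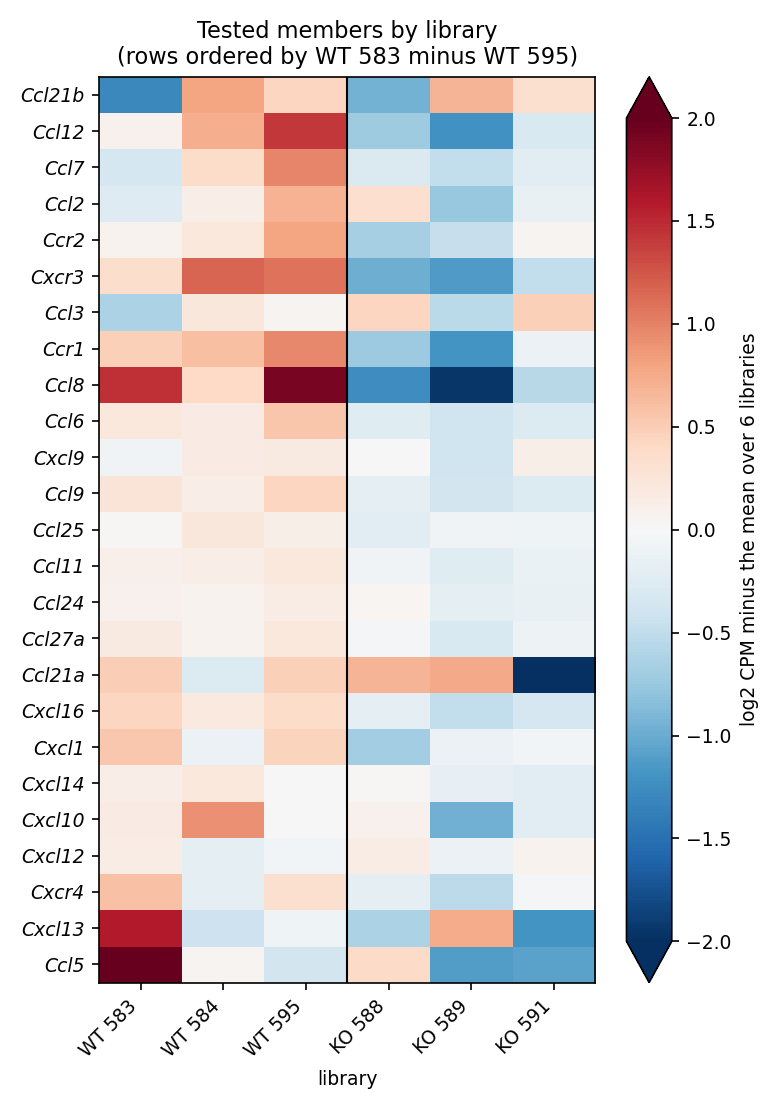
Log2 CPM of each tested member in each library minus its mean over the 6 libraries (colour, saturated beyond 2 in size), with rows ordered by WT mouse 583 minus WT mouse 595. The row of *Ccl12* near the top has its darkest red in WT 595 and that of *Ccl5* at the bottom in WT 583, while the dark blue cell of *Ccl21a* is the 14 counts of KO 591.

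Markers of macrophages and of several other cell types were also examined. Across all tested genes 1.37% were called lower in KO and 0.896% higher, which is the background for the marker counts here. Of 10 macrophage markers, 5 were called lower in KO (*Adgre1*, *Csf1r*, *C1qa*, *C1qb* and *C1qc*) and none higher. The log2 fold changes of the 10 ran from -0.73 to -0.10 with a median of -0.54. Their summed CPM was between 758 and 831 in the WT and between 482 and 604 in the KO libraries, and none was at 0. Of 6 markers shared by leukocytes, 2 were called lower in KO, and the sum of the 6 was 141 to 212 CPM in WT and 102 to 126 CPM in KO. Of 5 tested monocyte markers all had a log2 fold change below 0 (median -0.80) and none was called, with sums of 416 to 490 CPM in WT and 326 to 404 CPM in KO. The T cell markers summed to 80.3 to 99.2 CPM in WT and 54.6 to 66.8 CPM in KO, with none of 4 tested called. Most of that sum was *Thy1*, which other cells also carry, and without it the groups overlapped (3.24 to 27.8 CPM in WT and 2.37 to 3.26 in KO). Sparse markers such as *Cd3e* entered the test through WT, with 3 WT libraries and 1 KO library over the count limit. The B cell markers summed to 93.2 to 108 CPM in WT and 38.4 to 55.1 CPM in KO, with 1 of 2 tested called lower. That gene, *Ighm*, made up most of the sum, and without it the groups overlapped (1.54 to 23.0 CPM in WT and 1.06 to 4.40 in KO). NK cell markers summed to 2.02 to 4.21 CPM in WT and 0.561 to 1.00 CPM in KO, with 1 tested and not called. Genes of fibro-adipogenic and red cells also leaned towards lower levels in KO, without a call. Fibro-adipogenic cell markers had log2 fold changes below 0 in 7 of 7 (median -0.23, none called). Their sums were 8523 to 9966 CPM in WT and 7156 to 8351 CPM in KO. Red cell genes had log2 fold changes below 0 in 6 of 6 (median -0.86, none called), with sums of 4748 to 10392 CPM in WT and 4166 to 4536 CPM in KO. Muscle fibre markers went the other way, with 2 of 7 called higher in KO and sums of 48129 to 51592 CPM in WT and 52303 to 61435 CPM in KO. Among markers of dendritic cells, blood endothelium and lymphatic endothelium 1 each was called lower, and among 4 tested neutrophil markers none, with a median of -2.44. The neutrophil markers summed to 70.5, 2.23 and 16.5 CPM in WT mice 583, 584 and 595 and to 2.06 to 4.37 CPM in KO. Their groups overlapped, and WT mouse 583 stood far above the other libraries. The part of these cells in the levels of the members was not tested. In whole muscle, fewer cells of a type and less RNA per cell cannot be told apart. Set against the summed markers, a scale added after the data were seen, *Ccl6*, *Ccl9* and *Cxcl16* had KO to WT ratios of 0.967, 1.02 and 0.940 and overlapping groups (exact two-sided permutation tests, p = 0.8, 0.9 and 0.4). On the same scale *Ccl8* was at 5.34 ± 2.31 CPM per 100 marker CPM (SD, n = 3) in WT and 1.37 ± 0.50 in KO, a ratio of 0.256. *Ccr1* had a ratio of 0.586. For these genes, *Ccl8* and *Ccr1*, WT and KO were separate (p = 0.1 by exact permutation, two-sided, which is the lowest value that 3 against 3 can give). *Ccl12* had a ratio of 0.503 with overlapping groups (p = 0.2, same exact test). This scale was set only for members already called in these libraries, and 5 of the 10 macrophage markers were called too. These ratios therefore add no support to the calls, and the part of macrophages in them was not tested.

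**Figure D4:**
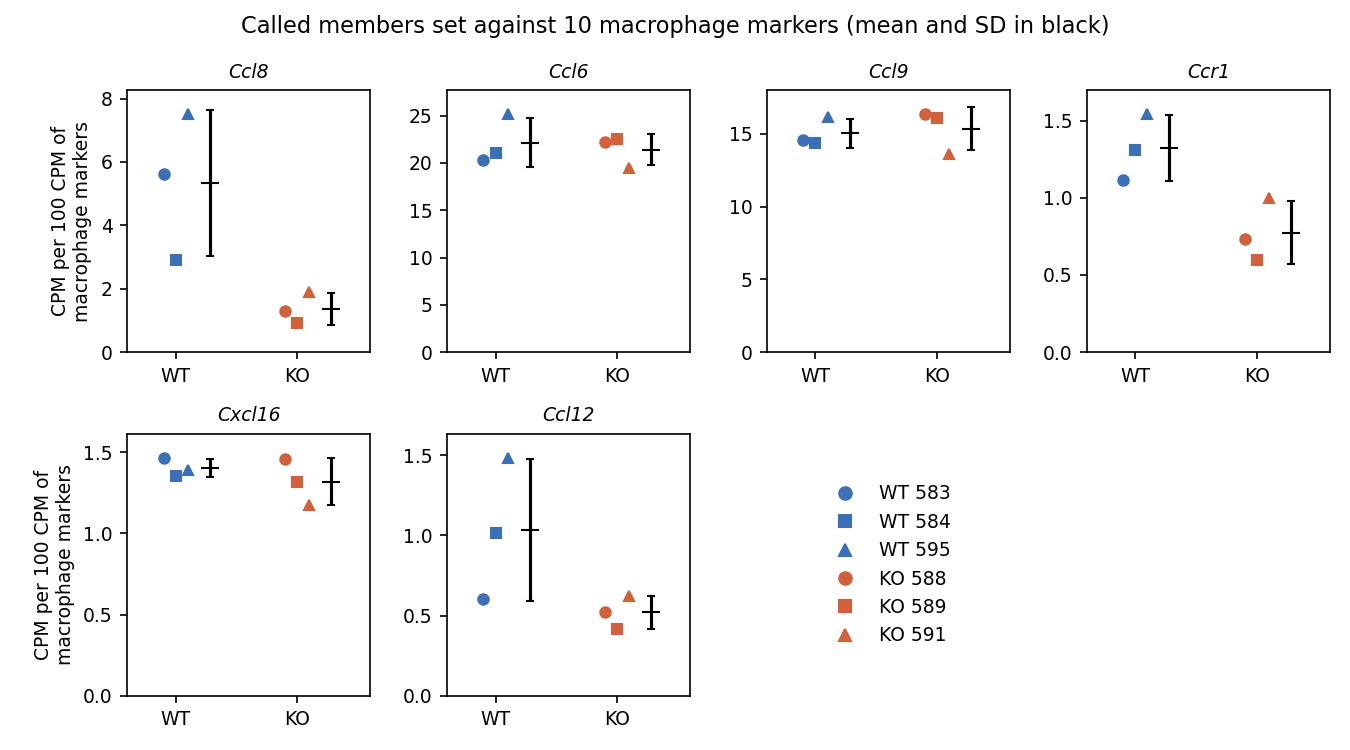
CPM of each called member per 100 CPM of 10 summed macrophage markers in the 3 WT (blue) and 3 KO (orange) libraries, with mean and SD in black and axes from 0. *Ccl6*, *Ccl9*, *Cxcl16* and *Ccl12* overlap between genotypes on this scale, and *Ccl8* and *Ccr1* do not.

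Outside the name rule, none of the listed genes of the chemokine system was called. One list held the atypical receptors and their relatives, which bind chemokines without the usual G protein signalling, the ligands and receptors of the CX3C and XC families, and the CXC ligands *Pf4* and *Ppbp*, whose symbols begin otherwise. Of its 10 tested genes 8 had a log2 fold change below 0, with a median of -0.30. Of 31 tested genes that relay the receptor signal (G protein subunits, arrestins, kinases, Rac activators and integrins), 25 were below 0, with a median of -0.13. Their medians lay between that of the members, -0.54, and that of all tested genes.

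The median log2 fold change of the members and the fall of *Ccl8* were steadier than the number of calls. Other falls varied more with a library left out, such as *Ccl12* from -1.79 to -1.13 and the uncalled *Ccl5* from -2.10 to -0.29. *Ccl8* passed the threshold in each of 12 alternative analyses, 6 of which left out a library, with log2 fold changes from -2.92 to -2.13. The count of called members was 2 without WT mouse 583 (*Ccl12*, *Ccl8*), 2 without WT mouse 595 (*Ccl8*, *Ccl6*), 4 without KO mouse 588, and 2 each without KO mice 589 and 591 (*Ccr1*, *Ccl8*), and it was 7 without WT mouse 584 (the 6 and *Ccr7*). Over all genes, the share called with a library left out ran from 0.526% (without WT mouse 583) to 4.06% (without WT mouse 584). In none of the 12 was a member called higher in KO.

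**Figure D5:**
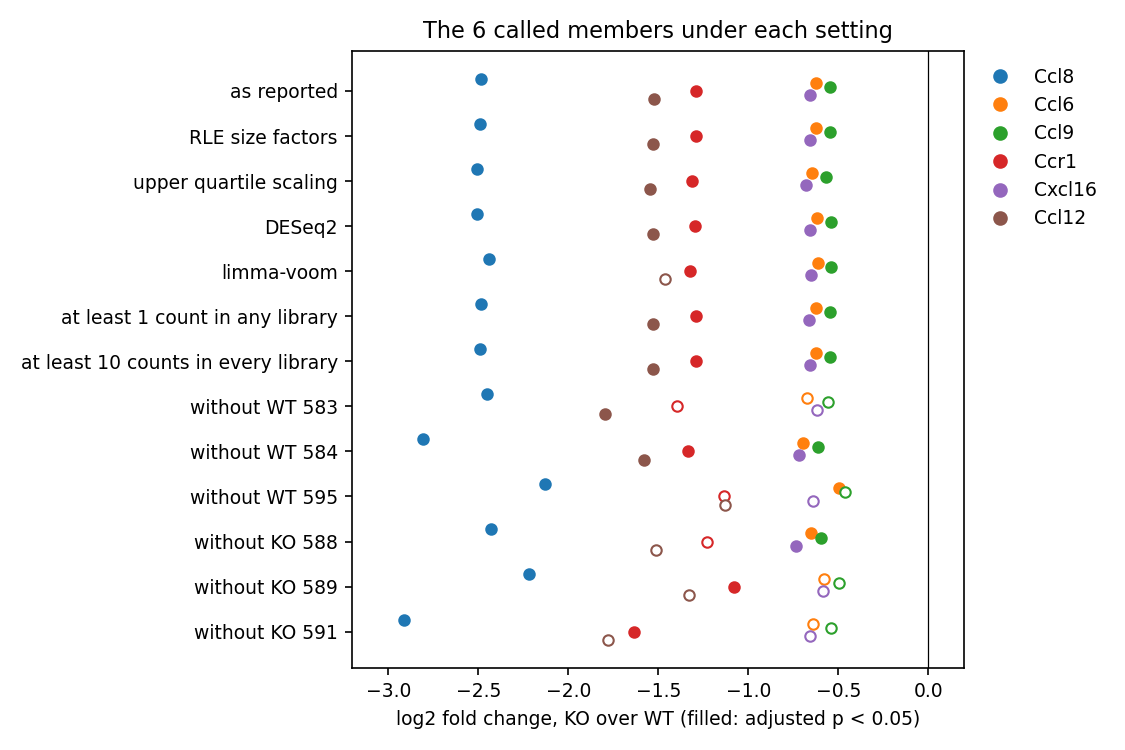
Log2 fold change (KO over WT) of the 6 called members as reported and under 12 alternatives, which are the rows. Filled points have an adjusted p under 0.05. *Ccl8* is filled in every row, and no point lies above 0.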

How the data were processed

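The authors mapped reads of a stranded poly(A) library to mm10 with HISAT2 and deposited whole-number counts per gene, without normalization. The table also holds a gene length in bases per the file headers, entered as a score and used for TPM. The counting tool, annotation and strand setting are not given in the sources used here. The sample records name another tool and build (Bowtie 0.12.2, mm8), but the table's coordinates are those of GRCm38. The 448 rows without a gene name held under 0.13% of counts and stayed in the fit. The 3 mice of each genotype were compared without covariates.

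Genes were kept by filterByExpr (minimum count 10, minimum total 15), scaled by TMM and tested in R 4.3.3 by the quasi-likelihood functions glmQLFit and glmQLFTest of edgeR 4.0.16, adjusted over 15075 genes with a threshold of 0.05. Standard errors were derived from the F statistic, as the absolute log2 fold change over its root. Replicate libraries differed by more than counting noise. The genes named with values per library were the called members, the 6 with the highest mean CPM and those with the smallest p in each direction, and other counts per library were picked after their values were seen. The results of 1 row that fits the name rule are not reported here. Members and lists were chosen with earlier results of these data known. Alternatives used DESeq2 1.42.0, limma-voom (limma 3.58.1), RLE and upper quartile scaling, 2 other filters, and each library left out. Promoters are RefSeq's, and 38 members matched an entry. Transcripts were GENCODE vM21.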

Additional observations from a re-analysis of the deposited data

How the results depend on the processing

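The number of members called lower in KO, which was also the number called, was 6 with RLE or upper quartile scaling and where every library had to hold 10 counts, 7 with DESeq2 (adding *Ccr2*), 5 with limma-voom (without *Ccl12*, adjusted p = 0.0608) and 13 of 49 where 1 count in any library sufficed. Beside the 13 of 49, 5.62% of all genes were called in that fit. The 13 held the 6 and also *Ccr2*, *Ccr7*, *Cxcr5*, *Ccl5*, *Ccl7*, *Cxcr3* and *Cxcr4*. Of these, *Ccr7*, *Cxcr5* and *Ccl5* had their highest counts in WT mouse 583. That fit gave far smaller p-values: the adjusted p of *Tarsl2* (edgeR) was 1.72e-122, against 6.45e-07 in the main fit. With each library left out the number of members called lay between 2 and 7 (adding *Ccr7* without WT mouse 584). None was higher in KO in any of these. The count over all genes was 342 of 15075 (2.27%), and it was 671 of 25553 (2.63%) with DESeq2 and 1437 of 25553 (5.62%) with 1 count in any library. The 25553 of DESeq2 include genes to which it gave no adjusted p, as for 26 of 49 members. Its share is therefore not on the same footing as the 2.27%. With a library left out the count over all genes lay between 81 (0.526%) and 625 (4.06%). The other genes of the chemokine system had 1 call with DESeq2 (*Rgs2*) and 5 with 1 count in any library. The median log2 fold change of the tested members stayed between -0.61 and -0.44, and that of *Tarsl2* between -3.91 and -3.69.

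Directions turned when a library was left out, each with an adjusted p of at least 0.413. These were *Cxcl12* without WT mouse 584 (-0.011, against 0.15 without WT mouse 583), *Ccl21a* without WT mouse 583 (0.05), WT mouse 595 (0.05) or KO mouse 591 (0.45, against -0.43 without KO mouse 589), *Cxcl13* without WT mouse 583 (0.069, against -1.51 without KO mouse 589), and *Ccl21b* without WT mouse 584 (0.31), WT mouse 595 (0.03) or KO mouse 588 (0.26, against -0.47 without WT mouse 583). The cause was not tested.

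No paired analysis was possible because the labels give each mouse its own number and no number is shared between genotypes. A level near 3 counts, as for most receptors, could not show a difference at this depth. The edgeR p-values weigh the difference between genotypes against the spread between mice, which is estimated partly from all tested genes. They rest on 3 mice per genotype.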
